A study of Mus musculus with 15 samples.

Results

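The genes described here are 10 immediate early response genes: Fos, Fosb, Jun, Junb, Jund, Egr1, Atf3, Ier2, Ier3 and Dusp1. They were listed by name and matched by symbol, and 10 of 10 were found among the 21886 genes of the RPKM table and among the 14301 genes of the count table. RPKM is reads scaled to transcript length and to the library's mapped reads, so RPKM values can be compared between genes. The RNA came from organoid cells grown from the prostate epithelium of C57BL/6 mice. The RPKM table held 4 genotypes from 3-month-old mice with 2 libraries each, and each library was RNA of 3 biological replicates mixed in equal mass. The Setd2 null group was Setd2PC-/-, the Ezh2 null group was Ezh2PC-/-, the double null group was Setd2PC-/-;Ezh2PC-/-, and the control had neither deletion. The count table held 2 genotypes from 2-month-old mice with 2 libraries each, one with wild-type Ezh2 and one with the Ezh2 K735R substitution (Ezh2K735R). The groups of each table also shared a background allele, which differed between the tables. The driver behind the PC alleles is not spelled out in the sources used here, and neither is the number of animals behind the count table's libraries. With 2 libraries a group, p-values measure the spread between mixed libraries and not between single animals.

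Immediate early genes are transcribed within minutes of a growth factor, stress or adhesion signal, without new protein synthesis, and their transcripts are short-lived. Fos and Jun proteins pair through leucine zippers to form AP-1, a transcription factor that binds TPA- and cAMP-type response elements. Jun and Junb are inducible, whereas Jund is expressed more constantly and is often counted as growth-restraining. Setd2 is the methyltransferase that places trimethylation on lysine 36 of histone H3, and Ezh2 is the catalytic subunit of the repressor complex that methylates lysine 27. The series compared loss of each enzyme alone and together, and a lysine substitution in Ezh2.

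The windows upstream of the 4 members that moved most with Ezh2 genotype are given here because Jun, Junb and Ier3 were lower and Jund was higher in the same libraries. Each is the 250 bases before the RefSeq gene start, 5′ to 3′ on the gene's strand, from RefSeq on GRCm38.p6; of the 10 members, 8 matched an entry in that table. Jun lies on the minus strand and its window is chr4:95052223-95052472. Junb is on the minus strand (chr8:84978749-84978998), Jund on the plus strand (chr8:70697489-70697738) and Ier3 on the plus strand (chr17:35821463-35821712). Capitals mark matches to 4 motifs searched on both strands. The first was TGANNTCA, with the spacing of the cAMP-type response element that AP-1 and ATF proteins can bind. The second was the cAMP response core TGACG, which can lie within the first. The third was the CCAAT box and the fourth the letters TATAA of a TATA box. The TPA-type element of AP-1 was not searched.
Jun: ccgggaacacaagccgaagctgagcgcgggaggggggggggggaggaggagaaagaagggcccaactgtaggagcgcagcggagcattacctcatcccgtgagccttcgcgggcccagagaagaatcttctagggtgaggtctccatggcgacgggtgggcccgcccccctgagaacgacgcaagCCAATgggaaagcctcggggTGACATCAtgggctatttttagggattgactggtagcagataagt
Junb: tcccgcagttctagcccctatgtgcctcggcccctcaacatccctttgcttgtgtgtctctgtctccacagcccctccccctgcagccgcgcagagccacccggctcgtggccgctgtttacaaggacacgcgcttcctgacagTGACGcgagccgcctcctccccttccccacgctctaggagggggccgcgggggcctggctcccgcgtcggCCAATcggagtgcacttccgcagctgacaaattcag
Jund: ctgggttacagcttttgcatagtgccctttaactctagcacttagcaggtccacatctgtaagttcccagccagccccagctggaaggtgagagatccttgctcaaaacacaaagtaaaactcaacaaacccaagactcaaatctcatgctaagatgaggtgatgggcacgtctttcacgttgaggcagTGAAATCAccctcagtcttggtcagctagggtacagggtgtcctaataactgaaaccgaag
Ier3: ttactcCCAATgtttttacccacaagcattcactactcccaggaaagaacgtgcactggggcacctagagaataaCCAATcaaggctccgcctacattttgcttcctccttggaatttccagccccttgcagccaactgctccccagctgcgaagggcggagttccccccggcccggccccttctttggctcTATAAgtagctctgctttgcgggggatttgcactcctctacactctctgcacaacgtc

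The Jun window held TGACATCA at positions -45 to -38 from the gene start, and the Jund window held TGAAATCA at -61 to -54, and both match TGANNTCA. Of 32851 windows of the same length, 11.9% held TGANNTCA, and 3 of the 8 member windows did, the third being Dusp1. Junb held TGACG at -106 to -102 and CCAAT at -36 to -32. TGACG was present in 17.8% of all windows and in 5 of the 8 member windows. Ier3 held CCAAT at -244 to -240 and at -175 to -171 and TATAA at -58 to -54. CCAAT was found in 33.9% of all windows and TATAA in 22.8%. The serum response motif known as the CArG box was found in 1.47% of all windows and in 0 of these 8. Egr1 and Ier2 had no window, and bases farther upstream were not searched for any member. The absence of a CArG box therefore holds for these windows only. These matches are letters in a window and no measure of binding.

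The RPKM libraries held 29660545 to 34847360 reads on listed genes in the control and Setd2 null groups and 46871774 to 54155164 in the Ezh2 null and double null groups, so depth moved with Ezh2 genotype. The count libraries held 28831228 to 37482322. Setd2 transcript was 17.0 and 16.1 RPKM in the control libraries and 8.75 and 10.3 in the Setd2 null libraries; Ezh2 transcript was 19.4 and 20.8 RPKM in the control and 13.8 and 11.6 in the Ezh2 null libraries. In the double null libraries Setd2 was 8.99 and 7.54 RPKM and Ezh2 16.6 and 14.2 RPKM. Both targeted genes were thus lower in the libraries labelled as deleted but not absent, and reads from the part of a gene that is not deleted do not check the deletion. Against the control, limma called Ezh2 in the Ezh2 null (adjusted p = 0.00414) and Setd2 in the double null (0.000642). It did not call Setd2 in the Setd2 null (0.0563) or Ezh2 in the double null (0.0514). Setd2 was also 14.6 and 11.6 RPKM in the Ezh2 null libraries. Epithelial markers (Epcam, Cdh1, Krt5, Krt14, Krt8, Krt18 and Trp63) summed to 4205 to 5178 RPKM in the control and Setd2 null libraries and to 3509 to 5136 in the Ezh2 null and double null libraries. Single epithelial markers moved with Ezh2 genotype: in the Ezh2 null against the control Krt5 was called higher and Epcam, Cdh1 and Krt18 lower, and in the double null against the control Krt5, Krt14 and Trp63 were called higher and Epcam, Krt18, Cdh1 and Krt8 lower. Markers of other cell types moved with it too. The 10 stromal markers summed to 2.16 to 4.24 RPKM where Ezh2 was intact, with Lum and Des at 0, and to 29.3 to 34.4 RPKM where it was deleted. The 9 seminal vesicle and urothelial markers went from 38.0 to 55.0 RPKM up to 226 to 553 RPKM, with Svs2, Svs4 and Svs5 at 0 in the former. The 9 immune markers went from 21.8 to 39.6 RPKM with Ptprc, Lyz2, C1qa, C1qb, Adgre1 and Cd3e at 0, to 14.5 to 16.5 RPKM. Among them Cd68 was 21.8 to 39.5 RPKM where Ezh2 was intact and 4.24 to 11.6 RPKM where it was deleted, while Lyz2 went the other way, from 0 to between 2.67 and 8.20 RPKM. The 7 endothelial markers went from 0.553 to 0.683 RPKM with Tie1 at 0, to 2.08 to 3.27 RPKM. The part of these differences and of depth in the changes below was not tested. In bulk RNA, fewer cells expressing a gene and less RNA per cell cannot be told apart.

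In the control the members spanned more than 2 orders of magnitude per length. Junb, an AP-1 subunit, was highest at 321 ± 7.70 RPKM (SD, n = 2), followed by Ier3, a stress-inducible regulator of cell survival, at 274 ± 0.811 RPKM. Then came Jun at 117 ± 9.18, Ier2, a nuclear early response protein, at 70.9 ± 5.57, the zinc finger factor Egr1 at 48.4 ± 3.12, and Jund at 41.9 ± 2.55 RPKM. Dusp1, the phosphatase that switches off MAP kinases, was at 20.5 ± 1.06 RPKM. Fos was at 13.2 ± 0.439 RPKM and Atf3, a stress-induced bZIP factor, at 11.6 ± 1.09 RPKM. Fosb was last at 0.778 ± 0.102 RPKM. In the control all neighbours in this order had separate libraries. In the Setd2 null group the order was the same, but 2 pairs of neighbours overlapped: Junb (262 and 340 RPKM) with Ier3 (269 and 268 RPKM), and Egr1 (32.4 and 40.1 RPKM) with Jund (29.0 and 32.9 RPKM).

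With Ezh2 deleted the order changed. Jund moved from the sixth place to the second in the Ezh2 null group, at 125 ± 7.98 RPKM, and to the third in the double null group, at 113 ± 1.86 RPKM. Jun dropped from the third place to the sixth (42.7 ± 6.63 RPKM) and to the fifth (60.4 ± 10.3 RPKM). In the Ezh2 null group 2 pairs of neighbours did not separate beyond their spread: Jund (120 and 131 RPKM) overlapped Junb (128 and 182 RPKM), and Dusp1 (12.4 and 16.9 RPKM) overlapped Fos (13.2 and 13.3 RPKM). In the double null group all neighbours had separate libraries.

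**Figure D1:**
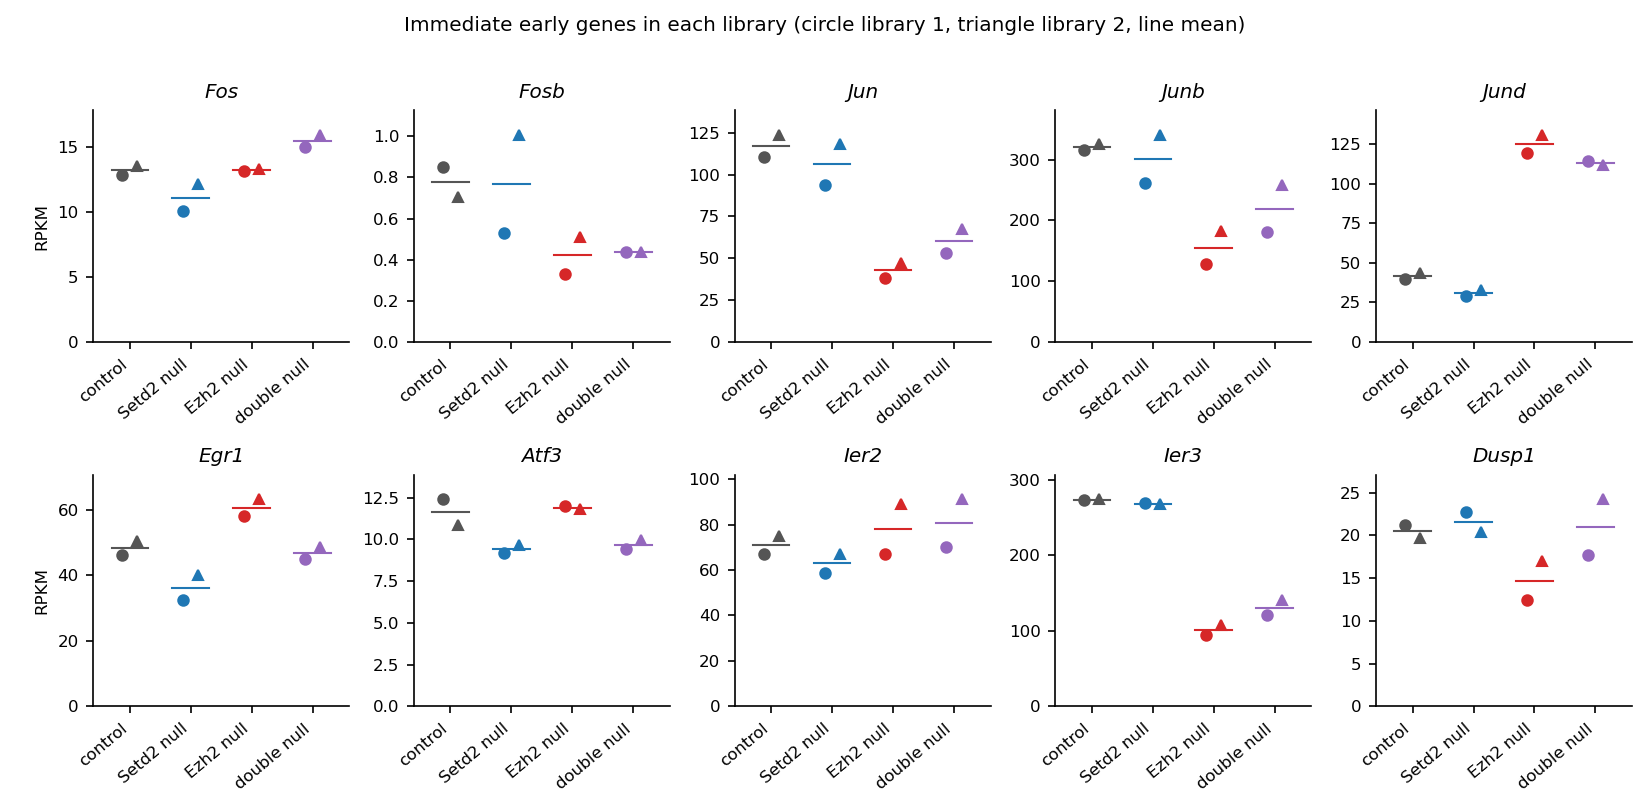
RPKM (vertical axes, each from 0) of the 10 genes in each library of the 4 genotypes; circles are library 1, triangles library 2 and lines group means. Jun, Junb and Ier3 sit lower and Jund higher in both genotypes without Ezh2, whereas Fos (10.1 to 15.9 RPKM) and Atf3 (9.21 to 12.4 RPKM) keep to a smaller range.

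The first question was what Ezh2 loss did to these genes with Setd2 intact. Of the 4 members that changed, 3 were lower and 1 was higher. Jun, Junb and Ier3 fell and Jund rose. Fold changes are differences in log2(RPKM + 1), tested with limma across 11338 genes that averaged 1 RPKM or more; Fosb was under that level, so 9 of 10 members were tested. In this comparison 1 of 9 members was called higher and 3 lower, where 36.1% of all tested genes were called higher and 20.5% lower (56.6% in either direction). Of all calls 63.8% were higher, and 50.1% under quantile normalization. A call in 4 of 9 members is therefore not more than the share among all genes. The control and Ezh2 null libraries did not overlap for 6 of 9 members, beside 81.4% of all genes. The median of the members' fold changes was 0.00 and that of all genes 0.18, a shift that fell to 0.01 when libraries were quantile normalized, and the members' median was then -0.16.

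Jun was 111 and 124 RPKM in the control libraries and 38.1 and 47.4 RPKM in the Ezh2 null libraries. The groups were far apart, and the log2 fold change was -1.44 (SE 0.176; adjusted p = 0.000108 by limma), a ratio of 0.365. Junb went from 315 and 326 RPKM to 128 and 182 RPKM, a log2 fold change of -1.07 (SE 0.222; adjusted p = 0.00275 by limma). Every Ezh2 null library was below every control library for both genes. Ier3 was 273 and 274 RPKM in the control and 94.2 and 107 RPKM in the Ezh2 null libraries, a log2 fold change of -1.44 (SE 0.134; adjusted p = 1.9e-05 by limma).

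Jund moved the other way within the same family. It was 40.1 and 43.7 RPKM in the control and 120 and 131 RPKM in the Ezh2 null libraries, a log2 fold change of 1.56 (SE 0.126; adjusted p = 7.6e-06 by limma) and a ratio of 2.99. These 4 calls held in 16 of 16 alternative analyses each.

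The other tested members did not pass. Dusp1 was 21.2 and 19.7 RPKM in the control and 12.4 and 16.9 RPKM in the Ezh2 null libraries; its log2 fold change of -0.47 (95% interval -0.87 to -0.06) lay at the threshold, with a limma adjusted p of 0.0501, and 0.0405 with the library number as a block. Across alternatives the limma or edgeR adjusted p for Dusp1 ran from 0.0168 to 0.300. Egr1 was 46.2 and 50.6 RPKM against 58.2 and 63.2 RPKM, a log2 fold change of 0.32 (95% interval 0.01 to 0.63; limma adjusted p = 0.0740, and 0.0141 with the block). Fos was 12.9 and 13.5 RPKM against 13.2 and 13.3 RPKM, with a log2 fold change of 0.00 (95% interval -0.27 to 0.28). Atf3 (0.04, interval -0.23 to 0.30) and Ier2 (0.12, interval -0.28 to 0.53) likewise had intervals that covered 0. Fosb was 0.850 and 0.706 RPKM in the control against 0.332 and 0.510 RPKM; on whole reads recovered from the RPKM values its edgeR log2 fold change was -1.06 (adjusted p = 0.0461), and without the level filter the limma value was -0.33 (adjusted p = 0.112).

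**Figure D2:**
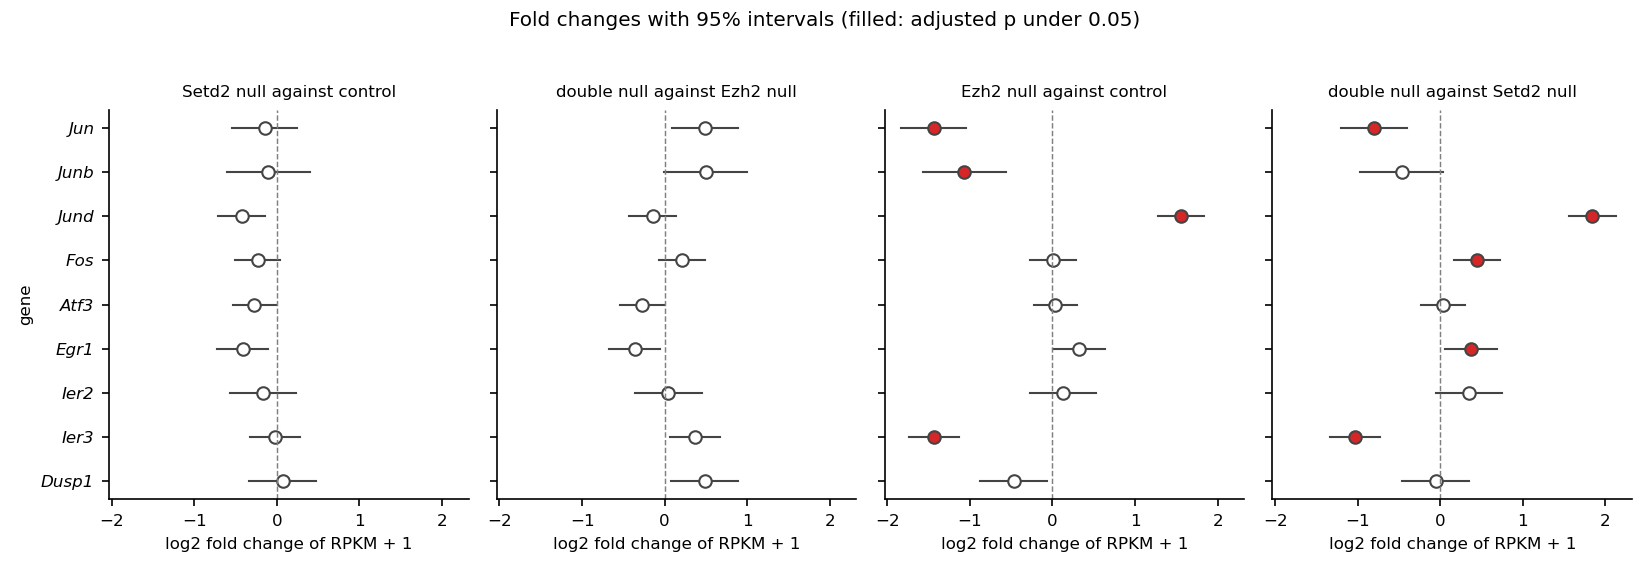
Log2 fold change of RPKM + 1 (points) with 95% intervals (lines) for the 9 tested genes in 4 comparisons; filled points had an adjusted p under 0.05. The panels for Ezh2 loss show Jun and Ier3 to the left and Jund to the right of 0, and no point is filled in the panels for Setd2 loss.

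The same question was asked in Setd2 null cells by setting the double null group against the Setd2 null group. Jund rose from 29.0 and 32.9 RPKM to 114 and 112 RPKM, a log2 fold change of 1.84 (SE 0.126; adjusted p = 2.8e-06 by limma). Ier3 fell from 269 and 268 RPKM to 121 and 140 RPKM (-1.04 in log2 fold change, SE 0.134; adjusted p = 0.000168 by limma). Jun fell from 94.1 and 118 RPKM to 53.1 and 67.7 RPKM, a log2 fold change of -0.80 (SE 0.176; adjusted p = 0.00386 by limma). The libraries of the compared groups did not overlap for these 3 genes. Junb was 262 and 340 RPKM against 180 and 258 RPKM, with log2 fold change -0.47 (95% interval -0.97 to 0.03; limma adjusted p = 0.101), and passed with the library number as a block (adjusted p = 0.0202).

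Fos and Egr1 also passed in this comparison, both upward. Fos was 10.1 and 12.2 RPKM in the Setd2 null libraries and 15.1 and 15.9 RPKM in the double null libraries (0.45 in log2 fold change, SE 0.123; adjusted p = 0.0123 by limma). The call was lost under quantile normalization (0.28, limma adjusted p = 0.0759) and in 4 other alternatives. Among these were the fits without Setd2 null library 1 (log2 fold change 0.33) and without double null library 2 (0.41). Egr1 went from 32.4 and 40.1 RPKM to 45.0 and 48.8 RPKM (0.37, SE 0.139, limma adjusted p = 0.0458) and lost its call in 12 of 16 alternatives, including quantile normalization (adjusted p = 0.121). Ier2 was 58.5 and 67.2 RPKM against 70.0 and 91.0 RPKM (0.34, 95% interval -0.06 to 0.74, limma adjusted p = 0.131, and 0.0175 with the block). Thus 3 of 9 members were called higher and 2 lower, where 35.6% and 19.4% of all genes were (55.0% in either direction; 64.7% of all calls were higher, and 48.3% under quantile normalization). Under quantile normalization 1 member was called higher and 2 lower. The libraries did not overlap for 7 of 9 members, beside 76.2% of genes.

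Against the control, which is also the reference of the Ezh2 null comparison, the double null group had higher Jund (log2 fold change 1.41, limma adjusted p = 1.6e-05), lower Ier3 (-1.06, adjusted p = 0.000152) and lower Jun (-0.95, adjusted p = 0.00155). Junb was at -0.57 (95% interval -1.07 to -0.07; limma adjusted p = 0.0532, and 0.00913 with the block). So 1 of 9 members was called higher and 2 lower, where 34.2% and 20.0% of all genes were (54.2% in either direction; 63.0% of all calls were higher, and 48.2% under quantile normalization). The libraries did not overlap for 6 of 9 members, beside 80.7% of genes. Under quantile normalization, median-ratio scaling and edgeR on recovered reads 5 members were called. Atf3 at -0.24 (limma adjusted p = 0.114) was called lower under quantile normalization (-0.40, limma adjusted p = 0.0169).

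The Jun family as a whole shows what these changes did to its composition. Jund made up 8.61% and 8.86% of the summed RPKM of Jun, Junb and Jund in the control libraries and 7.53% and 6.70% in the Setd2 null libraries. It made up 41.9% and 36.3% in the Ezh2 null libraries and 32.9% and 25.6% in the double null libraries. The summed level was 466 and 493 RPKM in the control libraries, 285 and 360 RPKM in the Ezh2 null libraries and 348 and 437 RPKM in the double null libraries. These shares are a description of the same values and were not tested separately. Among the Fos family, Fosl2 made up 68.3% to 75.7% of the summed RPKM of Fos, Fosb, Fosl1 and Fosl2 in the 8 libraries and Fos 19.7% to 23.8%.

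**Figure D3:**
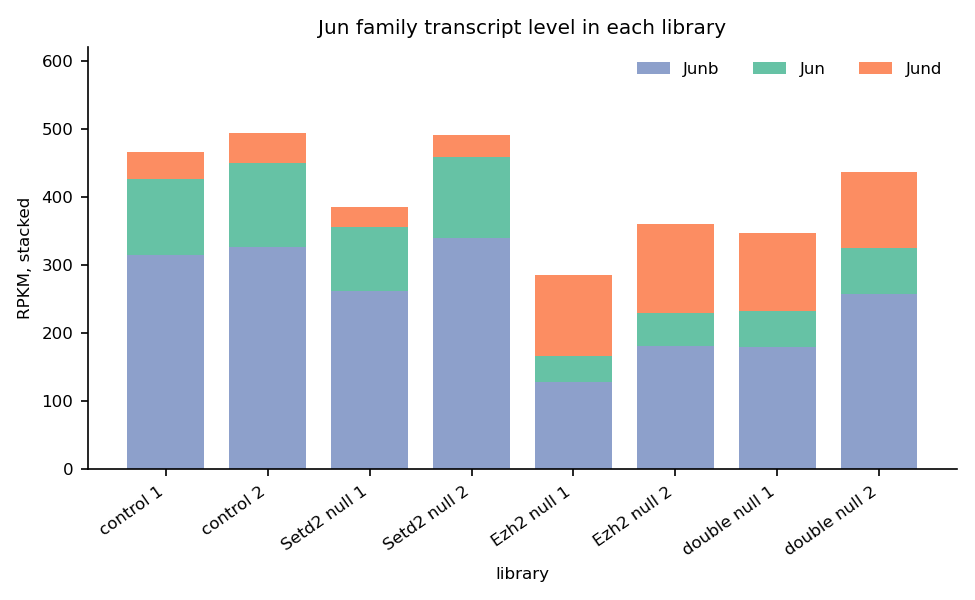
Stacked RPKM of Junb, Jun and Jund in each of the 8 libraries (vertical axis from 0). The Jund segment grows from 6.70% to 8.86% of the bar where Ezh2 was intact to 25.6% to 41.9% where it was deleted, while the Jun and Junb segments shrink.

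The second question was what Setd2 loss did. With Ezh2 intact, 0 of 9 members passed in the Setd2 null group, where 1.07% of all tested genes were called. At an unadjusted p under 0.05 there were 3 members, and edgeR on the recovered reads also called 0. The widest differences were those of Jund, 40.1 and 43.7 RPKM in the control and 29.0 and 32.9 RPKM in the Setd2 null libraries (log2 fold change -0.43, 95% interval -0.71 to -0.14, limma adjusted p = 0.205), and Egr1 (-0.41, interval -0.73 to -0.10, limma adjusted p = 0.262). Atf3 was at -0.27 (interval -0.53 to -0.01). The libraries did not overlap for 5 of 9 members, these 3 among them, beside 42.2% of all genes. For Ier3 the interval ran from -0.33 to 0.27.

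With Ezh2 deleted, Setd2 loss was tested by setting the double null group against the Ezh2 null group. Again 0 of 9 members passed, with 6.49% of all genes called; 5 members had an unadjusted p under 0.05 and edgeR on recovered reads called 0. The libraries did not overlap for 7 of 9 members, beside 42.3% of genes. Jun was 38.1 and 47.4 RPKM in the Ezh2 null and 53.1 and 67.7 RPKM in the double null libraries, a log2 fold change of 0.49 (95% interval 0.09 to 0.88, limma adjusted p = 0.186). Junb was at 0.50 (interval -0.004 to 0.996, limma adjusted p = 0.325), with overlapping libraries. Ier3 was at 0.37 (interval 0.07 to 0.67, limma adjusted p = 0.186) and Dusp1 at 0.48 (interval 0.08 to 0.89, adjusted p = 0.205). Atf3 was at -0.27 (interval -0.54 to -0.01, limma adjusted p = 0.290). Egr1 was 58.2 and 63.2 RPKM against 45.0 and 48.8 RPKM, a log2 fold change of -0.36 (interval -0.68 to -0.05, limma adjusted p = 0.217). The reported fit did not pair libraries, so a library difference shared by both groups counts as spread. Such differences correlated at 0.93 over all genes between these groups. On the log2 scale they were 0.50 and 0.51 for Junb, 0.42 and 0.43 for Dusp1 and 0.31 and 0.34 for Jun. The 0 of 9 therefore does not show that Setd2 loss left these members unchanged. With the library number as a block across all genotypes, Jun (adjusted p = 0.0165) and Egr1 (adjusted p = 0.0449) passed. Pairing within these groups alone was not tested. The double null libraries lay between the control and the Ezh2 null libraries for Jun and Ier3, as their values above show.

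Whether one deletion altered the effect of the other was tested as an interaction. None of 9 members passed, beside 2.59% of all genes; 2 had an unadjusted p under 0.05 and edgeR on recovered reads called 0. The interaction was 0.64 for Jun (95% interval 0.08 to 1.20, limma adjusted p = 0.363, and 0.0402 with the block), 0.45 for Fos (interval 0.05 to 0.84, adjusted p = 0.362) and 0.60 for Junb (interval -0.11 to 1.30, adjusted p = 0.620). A smaller fall of Jun in the absence of Setd2 was therefore called only with the block.

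The libraries within a genotype differed in these genes in one direction. In log2(RPKM + 1), library 2 was above library 1 in 7 of 10 members in the control, 8 in the Setd2 null, 9 in the Ezh2 null and 9 in the double null group, while 47.0% to 50.5% of all genes were higher in library 2. Junb differed by 0.50 between the Ezh2 null libraries and by 0.51 between the double null libraries, and Dusp1 by 0.42 and 0.43. The median size of the difference over all genes was 0.17 and 0.16 in those groups. The deviations of library 2 from library 1 correlated at 0.93 over 11338 genes between the Ezh2 null and the double null groups (a description, with genes that are not independent), against 0.11 to 0.36 for the other pairs of groups.

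**Figure D4:**
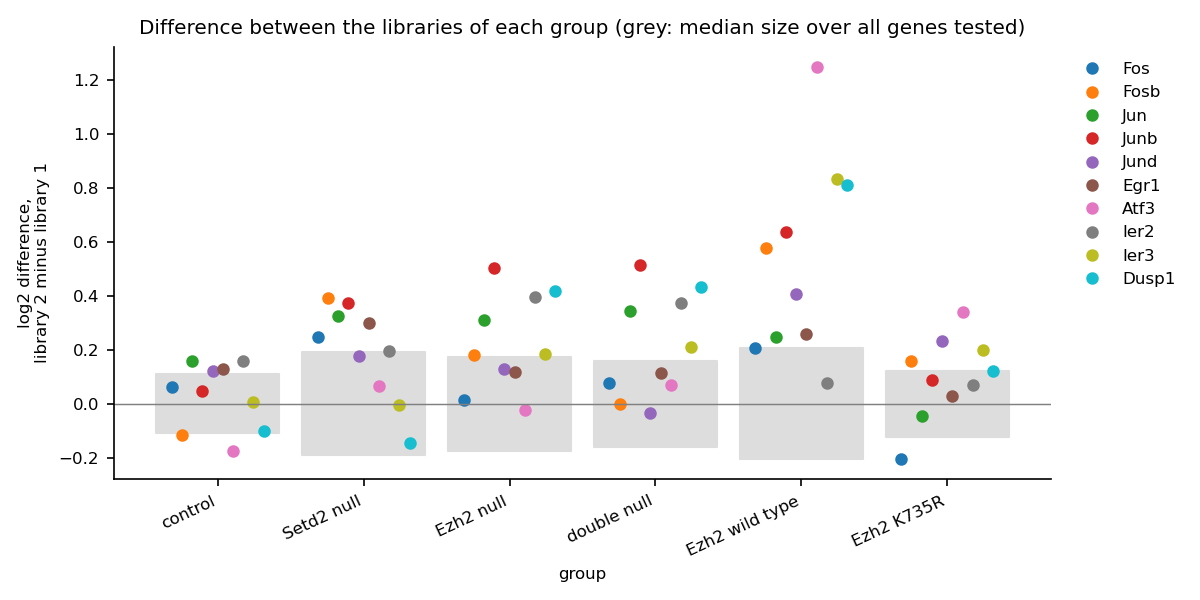
Difference of library 2 minus library 1 on the log2 scale (vertical axis) for each of the 10 genes in each of the 6 groups; the grey band spans the median size of that difference over all genes tested. Most points lie above 0, up to 1.25 for Atf3 in the Ezh2 wild-type group.

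The third question concerned Ezh2 K735R, in cells that come from another table and are set only against their own control. Values are CPM, counts relative to the library total as scaled by edgeR's TMM factors, and 10 of 10 members were tested. By edgeR's quasi-likelihood test 0 of 10 passed, beside 0.00757% of all 13203 genes (1 gene); 1 member had an unadjusted p under 0.05, and DESeq2 and limma called 0 members. The libraries did not overlap for 2 of 10 members, Jun and Fos, beside 42.3% of genes. Jun was 149 and 176 CPM with wild-type Ezh2 and 206 and 200 CPM with K735R, a log2 fold change of 0.32 (edgeR adjusted p = 0.514). Its limma interval ran from 0.03 to 0.62. Ier3 was 224 and 400 CPM against 379 and 435 CPM (0.38, edgeR adjusted p = 0.743; limma interval -0.35 to 1.22), and the groups overlapped. Jund, which was higher without Ezh2, was 146 and 194 CPM with wild-type Ezh2 and 134 and 157 CPM with K735R (-0.23, edgeR adjusted p = 0.733; limma interval -0.65 to 0.22).

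The wild-type libraries set the spread here. Library 2 was above library 1 in 10 of 10 members, by a median of 0.49 on the log2 scale, where the median size over all genes was 0.21 and 49.9% of genes were higher in library 2. Atf3 was 16.4 and 40.5 CPM, Dusp1 55.6 and 98.4 CPM and Junb 345 and 537 CPM in these libraries. The K735R libraries lay between them for Atf3 (22.6 and 28.9 CPM), Dusp1 (65.6 and 71.4 CPM) and Junb (484 and 515 CPM). Without wild-type library 2, the edgeR log2 fold change in K735R was 0.87 for Ier3, 0.66 for Atf3, 0.55 for Junb, 0.46 for Jun and 0.31 for Dusp1. Without wild-type library 1 it was -0.52 for Dusp1 and -0.11 for Junb. In these fits the lone wild-type library is assumed to vary like the other group. Egr1 (189 and 226 against 208 and 212 CPM), Fos (27.2 and 31.6 against 38.3 and 33.0 CPM) and Ier2 (99.4 and 105 against 96.1 and 101 CPM) differed by at most 0.28 in log2 fold change. Fosb was lowest, at 5.54 and 8.75 CPM against 6.09 and 6.93 CPM.

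**Figure D5:**
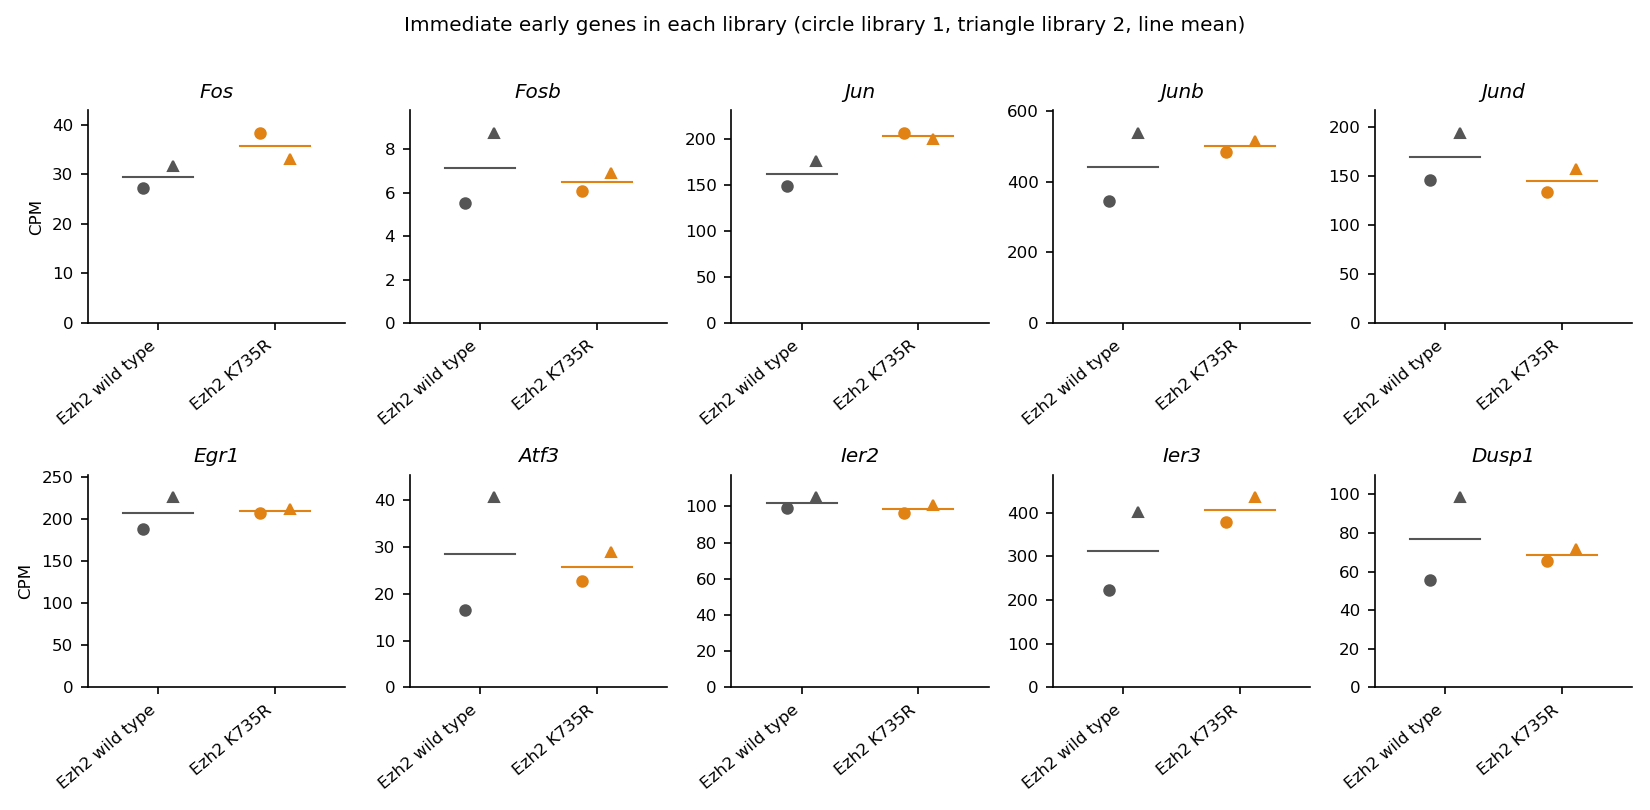
CPM (vertical axes, each from 0) of the 10 genes in each library with wild-type Ezh2 and with Ezh2 K735R; circles are library 1, triangles library 2 and lines group means. The wild-type libraries lie farther apart than the K735R libraries for all genes but Fos, and the groups overlap for 8 of the 10 genes.

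Genes around the immediate early response were counted in 9 lists with 156 genes, and each list's counts in the Ezh2 null against the control stand beside 20.5% of all genes called lower and 36.1% higher. In the Ezh2 null against the control, the AP-1 target genes had the lowest median of the 9 lists: 12 of 16 tested were lower and 2 higher, with a median log2 fold change of -1.89 (all genes 0.18). The lists were chosen with earlier results of these data known, so this rank is a description and no test of AP-1 activity. Mmp13 and Mmp10, collagenase and stromelysin genes, went from 27.2 and 26.1 RPKM to 0.0134 and 0.0157 RPKM and from 36.1 and 39.6 RPKM to 0.394 and 0.388 RPKM. Plau, the urokinase gene, went from 227 and 222 RPKM to 14.5 and 14.6 RPKM (log2 fold change -3.86, limma adjusted p = 3.9e-08), and the cytokine Il1a fell by 3.94 (adjusted p = 3.6e-08). The genes of the list that rose were Ivl, a cornified envelope protein, and Ccnd1, a cyclin. Ccnd1 (0.58, limma adjusted p = 0.0250) lost its call under median-ratio scaling (0.0934), without the level filter (0.0558), with edgeR on recovered reads (0.0769), and without Ezh2 null library 1 (0.170), control library 1 (0.129) or control library 2 (0.0769). The same list in the double null against the Setd2 null had 11 lower and 3 higher of 16, where 19.4% of all genes were called lower and 35.6% higher.

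Secreted and effector products of the early response had 13 of 28 lower and 3 higher (median -0.20; 20.5% and 36.1% of all genes). Cyr61, a matricellular protein, went from 177 and 172 RPKM to 13.2 and 13.1 RPKM (log2 fold change -3.63, limma adjusted p = 3.8e-08). Ctgf, its relative, fell by 2.84 (adjusted p = 1.1e-06), the prostaglandin synthase Ptgs2 fell by 3.54 (adjusted p = 1.9e-07) and the NF-κB feedback gene Tnfaip3 fell by 2.02 (adjusted p = 8.5e-07). Among other immediate early transcription factors 6 of 17 were lower and 4 higher. Bhlhe40, a clock-linked repressor, went from 235 and 231 RPKM to 58.4 and 56.9 RPKM (limma adjusted p = 1.3e-06), the TGF-β-induced factor Klf10 fell by 1.38 and the helix-loop-helix inhibitor Id3 fell by 1.90. Myc rose from 26.3 and 24.8 RPKM to 58.2 and 61.9 RPKM (1.20, limma adjusted p = 6.3e-05). Of the AP-1 partners, 3 of 12 were lower, a share near the 20.5% of all genes, and 0 higher; Maff, a small Maf protein, fell by 1.77 (limma adjusted p = 7.1e-05), and Maf (-0.61) and Bach1 (-0.56) also fell. With the library number as a block 4 of 12 partners were lower and 2 higher, and of the 28 effector products 13 were lower and 5 higher. The block called 7453 of 11338 genes, 4694 of them higher. Without it 6416 were called, 4096 of them higher.

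Upstream of these genes, 5 of 9 EGF receptors and ligands were lower and 2 higher, where 20.5% and 36.1% of all genes were. The ligand Hbegf went from 72.6 and 71.1 RPKM to 17.3 and 20.3 RPKM (-1.89, limma adjusted p = 6.9e-06), Btc fell by 0.81 and the receptor Egfr fell by 0.70, while Erbb2 rose by 0.74. Among MAP kinases and serum response cofactors 7 of 28 were lower, near the share of all genes, and 4 higher (median -0.01), and 11 were lower and 3 higher under quantile normalization. The ETS factor Elk3 fell by 1.36, the p38 activator Map2k6 by 1.20 and the ERK activator Map2k1 by 0.82, while Hras rose by 1.27. Of the feedback inhibitors, to which Dusp1 is related, 5 of 14 were lower and 1 higher. Under quantile normalization 8 were lower and 1 higher. That normalization called 6335 of 11338 genes, 3177 of them higher. Without it 6416 were called, 4096 of them higher. Dusp10 fell by 1.69, Dusp4 by 1.65 and Spred3 by 1.02, and Spry1 rose by 1.18 (limma adjusted p = 0.00142).

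Stress lists were read beside Atf3, Ier3 and Dusp1. In the integrated stress response 5 of 10 genes were lower and 1 higher, with Trib3 (-1.24), Ddit3 (-1.15) and Chac1 (7.40 ± 0.986 RPKM in the control, 3.24 ± 0.995 RPKM in the Ezh2 null group; SD, n = 2) lower and Sesn2 (1.49) higher. Of 11 heat shock genes 5 were higher and 0 lower, and under quantile normalization 3 were higher and 1 lower. Of all genes 36.1% were called higher and 20.5% lower. Quantile normalization called 6335 of 11338 genes, 3177 of them higher. Hsph1, a co-chaperone, went from 6.90 and 6.95 RPKM to 16.0 and 14.7 RPKM (1.05, limma adjusted p = 9.8e-05). Hspa1b was at 1.45, which is uncertain because Hspa1a is a nearly identical copy. Hspa8 (0.65, limma adjusted p = 0.00946) lost its call without control library 2 (adjusted p = 0.0826) or Ezh2 null library 1 (0.0521), and Dnaja1 (0.49, adjusted p = 0.0217) under quantile normalization (0.0878).

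In the Setd2 null against the control, 4 list genes passed, where 1.07% of all tested genes were called. They were 2 of 16 AP-1 target genes, 1 of 9 EGF receptors and ligands and 1 of 17 other immediate early transcription factors. Mmp13 was 27.2 and 26.1 RPKM in the control and 68.9 and 68.3 RPKM in the Setd2 null libraries (log2 fold change 1.33, limma adjusted p = 0.00109). The cornified envelope gene Ivl rose by 1.37 (adjusted p = 0.0148), the EGF-type ligand Epgn rose by 0.69 (adjusted p = 0.0336) and the helix-loop-helix inhibitor Id1 fell by 0.77 (adjusted p = 0.0442). Leaving out either control library ended the calls of Ivl, Epgn and Id1. Id1 lost its call in 8 of 16 alternatives and Epgn in 8 of 15, among them edgeR on recovered reads (edgeR adjusted p = 0.0511 and 0.0636). Ivl lost its call in 4 of 16, among them the fit without the level filter (limma adjusted p = 0.0802). Epgn was low, at 0.445 and 0.540 RPKM in the control and 1.51 and 1.32 RPKM in the Setd2 null libraries. In the interaction 2.59% of all genes were called. The interaction was positive for Id1 (1.74, limma adjusted p = 0.00204), Id3 (1.56, adjusted p = 0.0168) and Il1a (1.24, adjusted p = 0.00785), and for Sprr1b and Vegfa. It was negative for Ctgf (-1.52, limma adjusted p = 0.0112), Timp1 (-1.79, adjusted p = 0.00203) and Mmp13 (-1.27, adjusted p = 0.00311). Of 16 AP-1 target genes 3 were thus positive and 2 negative. Of 17 other immediate early transcription factors 2 were positive, and of 28 effector products 1 was negative. Ctgf was 48.4 and 41.0 RPKM in the Ezh2 null libraries and 16.1 and 12.6 RPKM in the double null libraries. Id3 lost its interaction call without control library 2 (adjusted p = 0.0978) or either Setd2 null library (up to 0.0759), Ctgf without control library 2 (0.0714), and Mmp13 with a pseudocount of 0.1 (0.118) and with edgeR on recovered reads, where its sign was the opposite (adjusted p = 0.960). In K735R against wild type 0 of 149 list genes tested passed by edgeR, 24 had an unadjusted p under 0.05, and limma called 0. DESeq2 called 7 of 151 list genes, where it called 285 of 14301 genes. The AP-1 target genes had a median log2 fold change of 0.98 there (all genes -0.01), the opposite sign to their median in the Ezh2 null against the control, and 16 of 17 were above 0. DESeq2 called 6 of the 17 higher and 0 lower, where it called 177 of 14301 genes higher. By edgeR the median was 0.48 without wild-type library 1, with 13 of 17 above 0. Without wild-type library 2 it was 1.85, with 16 of 17 above 0.

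The genes whose log2(RPKM + 1) followed each member most closely over the 8 libraries are given as a description without a test, since the libraries share genotypes. Jund was closest to Pafah2 (Pearson r = 0.999), Eif4ebp2 (0.998) and Fkbp5 (0.998), and Ier3 to Prkcdbp (0.998). Jun was closest to Vangl2 (0.994) and Junb to Nectin2 (0.983). Ier2 was closest to Fastk (0.993), Fos to Map3k1 (0.989) and Egr1 to Pskh1 (0.986). Dusp1 was closest to the glycolytic genes Gapdh (0.974) and Tpi1 (0.950), and Atf3 to Msrb3 (0.953).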

How the data were processed

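RNA of 12 organoid libraries was analysed; 3 chromatin samples were not analysed here. Reads were paired, 150 bases, per the labels' protocols, and the submitters' processing notes name Bowtie, RSEM and the mm10 build, with no versions. The authors deposited 1 table of RPKM values and 1 table of counts; the counts were identified from the values, which are whole numbers. Date-damaged symbols (27 and 19) were repaired through the deposited gene identifiers.

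RPKM were tested as log2(RPKM + 1) with limma 3.58.1 (R 4.3.3) over 11338 genes averaging 1 RPKM or more, all 4 genotypes in 1 model with a trended robust spread. Counts were tested with edgeR 4.0.16 (quasi-likelihood, TMM) over 13203 genes. Tests were two-sided with Benjamini-Hochberg adjustment over all genes and a threshold of 0.05. Whole reads were recovered from the RPKM steps: 13744 of 13748 genes with reads in every library (99.97%) came out whole within 0.01 reads, and edgeR was run on them as an alternative. DESeq2 1.42.0 was an alternative for the counts. The procedures were tested on simulated data.

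The reported fits used genotype alone and no pairing of libraries. Library number was added as a block in an alternative fit. It was treated as a possible pairing because the deviations of same-numbered libraries correlated at over 0.1 in all 6 pairs of groups (0.11 to 0.93). The lowest pair lies near that limit, and the labels do not say what the numbers share.

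The members and gene lists were chosen with earlier results of these data known. Named list genes are up to 4 a list with the smallest p in Ezh2 null against control, and up to 3 a list called in Setd2 null against control, in the interaction or in K735R. Likeness names up to 3 genes a member. Strandedness was not stated for these tables, so reads of overlapping antisense genes cannot be told apart. A background allele and 1 immune marker of the planned list are not reported here.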

Additional observations from a re-analysis of the deposited data

How the results depend on the processing

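Of 955 alternatives of 64 member results, 853 kept their direction and their side of the threshold, 37 passed where the reported result did not, 17 lost a call and 48 changed sign; 0 of the sign changes involved a call in either fit. Jun, Ier3 and Jund kept their calls in every alternative run of Ezh2 null against control and of double null against Setd2 null. They also kept them in double null against control, which measures both deletions together and reuses the same libraries. Junb kept its call in every alternative run of Ezh2 null against control. Depth limits Fosb, with 69 to 142 reads in each RPKM library.

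The number of members called in the double null against the Setd2 null was 5; it was 3 under quantile normalization and 3 to 5 when 1 library was left out. Against the control it was 3, and 5 under quantile normalization, median-ratio scaling and edgeR on recovered reads. With the replicate block it went from 0 to 2 in the double null against the Ezh2 null and from 0 to 1 in the interaction. The block changed no other member count by over 1.5 times. For K735R the count was 0, and 0 to 3 when 1 library was left out: 1 without wild-type library 1 and 3 without wild-type library 2. In that table the deviations of same-numbered libraries correlated at 0.16 with only 2 pairs, so the numbers were not taken as pairing; the block called 0 members and 4 genes. Counts over all genes moved by over 1.5 times in 4 comparisons: Setd2 null against control (121, and 15 with only the compared groups to 231 with the block), the double null against the Ezh2 null (736, and 361 without double null library 2 to 472), the interaction (294, and 142 without control library 2 to 469 with the block) and K735R (1, and 0 without either K735R library, 285 by DESeq2, 644 without wild-type library 1 and 1595 without library 2).

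Sign changes in log2 fold change outside left-out libraries came from scaling. Under quantile normalization, median-ratio scaling and edgeR on recovered reads, in that order, they were -0.12, -0.13 and -0.14 for Atf3 and -0.16, -0.17 and -0.17 for Fos in Ezh2 null against control, -0.15, -0.14 and -0.15 for Atf3 in the double null against the Setd2 null, and -0.12, -0.14 and -0.12 for Dusp1 in the double null against the control. Ier2 in Ezh2 null against control was -0.058 under median-ratio scaling and -0.037 with edgeR on recovered reads. Ier3 in Setd2 null against control was 0.0018 under median-ratio scaling, and Egr1 in K735R was -0.022 without TMM factors.

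With 1 library left out, ranges that crossed 0 were -0.65 to 0.66 for Atf3, -0.52 to 0.31 for Dusp1, -0.11 to 0.17 for Egr1, -0.43 to 0.25 for Fosb, -0.092 to 9.3e-05 for Ier2, -0.11 to 0.55 for Junb and -0.42 to 0.0067 for Jund in K735R. In Ezh2 null against control they were -0.053 to 0.12 for Atf3, -0.029 to 0.034 for Fos and -0.074 to 0.32 for Ier2. In the double null against the Setd2 null they were -0.0021 to 0.069 for Atf3 and -0.27 to 0.16 for Dusp1, and against the Ezh2 null -0.15 to 0.24 for Ier2. Against the control they were -0.20 to 0.23 for Dusp1, -0.11 to 0.021 for Egr1 and -0.016 to 0.36 for Ier2. In the interaction they were -0.090 to 0.087 for Atf3 and -0.10 to 0.20 for Egr1, and in Setd2 null against control -0.31 to 0.015 for Jun and -0.29 to 0.086 for Junb. The cause was not tested.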
